A study of Homo sapiens with 8 samples.

Results

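The miRNAs described here are the miR-320 family, miR-484 and both arms of miR-877, which stand for the routes to a mature miRNA that bypass the nuclear enzyme Drosha. Processing itself was not measured, and miR-320b to miR-320e are included by their family name. They were chosen by name, as every row of the deposited count table for miR-320 (a to e), miR-484, miR-877-5p and miR-877-3p. This gave 8 of the 3112 rows, of which 1482 are known and 1630 predicted miRNAs. The cells were of the 786O line, a long-established culture derived from a human clear cell renal cell carcinoma (ccRCC). The study sequenced small RNA of 4 samples with a short hairpin RNA against the circular RNA circSOD2 (circSOD2-sh) and of 4 negative control (NC) samples. Its purpose was to look for miRNAs downstream of circSOD2. By the labels, the NC cells received a control plasmid and the circSOD2-sh cells the knockdown plasmid with Lipofectamine 3000, and RNA was taken after 48 h. The methods of the study describe stable lines made with lentivirus and puromycin, and the sources used here do not say which of the routes these samples took. Nothing in the labels says that the 4 samples of a group came from separate cultures, so that p-values measure the spread between these samples, which may be technical. Whether circSOD2 itself was reduced was not analysed here.

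Most miRNAs are cut out of long nuclear transcripts by Drosha and are then trimmed by Dicer in the cytoplasm. A few take other routes. The hairpins of miR-320a and miR-484 are textbook cases of precursors whose 5′ end is the start of transcription itself, so that they keep the RNA cap and need no cut by Drosha. Mirtrons such as miR-877 come from short introns which the spliceosome releases and which fold into a hairpin after debranching. Because both routes bypass Drosha, these miRNAs are often read beside canonical ones when a change in miRNA processing is in question, and miR-320a and miR-484 are also widely used as reference miRNAs in qPCR.

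Mature sequences are shown because they decide which rows can share reads and which rows share a seed. They are from RefSeq on GRCh38.p14, 5′ to 3′, with the seed (bases 2 to 8), which pairs with targets, in capitals.
miR-320b: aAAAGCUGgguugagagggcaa
miR-320c: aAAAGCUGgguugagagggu
miR-320d: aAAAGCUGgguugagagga
miR-320e: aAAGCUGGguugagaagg
miR-484: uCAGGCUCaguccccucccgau
miR-877-5p: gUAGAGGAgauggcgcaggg
miR-877-3p: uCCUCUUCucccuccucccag
Within the family, miR-320b, miR-320c and miR-320d had the same seed, whereas miR-320e starts 1 base later and its seed is shifted by that base. The first 19 bases of miR-320b and miR-320c were identical, and miR-320d shared its first 18 bases with both. Reads that end within this run cannot be assigned to 1 of these rows, and how the authors divided them is not given in the sources used here. The sequence and locus of miR-320a are not shown, so whether it can share reads with the other rows was not examined. Neither miR-484 nor an arm of miR-877 shared a seed with another of the miRNAs shown.

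Hairpin positions, from RefSeq on GRCh38.p14, differ between the routes. The hairpin MIR877 lies on chromosome 6 from 30584332 to 30584417 on the plus strand, within ABCF1, whose protein takes part in the start of translation. In 2 annotated transcripts of ABCF1 in GENCODE release 29, the exon before it ends at 30584331 and the exon after it starts at 30584418, so that the hairpin is the whole intron. Accordingly its first bases are GU, which open miR-877-5p, and its last are AG, which close miR-877-3p. The hairpin MIR484 lies on chromosome 16 from 15643294 to 15643372 on the plus strand, inside exon 1 and the UTR of the NDE1 transcript that starts 27 bases upstream of it. NDE1 encodes a protein of the centrosome and of dynein transport. Of the miR-320 genes, MIR320B2 lies on chromosome 1 from 224257040 to 224257110 on the minus strand in an intron of NVL on the same strand. MIR320E lies on chromosome 19 from 46709282 to 46709354 on the minus strand in an intron of PRKD2, which has the same strand. On chromosome 18, MIR320C1 (21683518 to 21683589, plus strand) lies opposite to an intron of ABHD3 and MIR320C2 (24321675 to 24321746, plus strand) opposite to an intron of OSBPL1A. MIR320B1 (chromosome 1, 116671746 to 116671817, plus strand), MIR320D1 (chromosome 13, 40727816 to 40727887, minus strand) and MIR320D2 (chromosome X, 140926160 to 140926231, minus strand) overlap no other gene of the GENCODE basic annotation. Since miR-320b, miR-320c and miR-320d each have 2 hairpins with the same mature sequence, their counts cannot be given to 1 locus. In every one of these miR-320 hairpins the mature miRNA lies on the 3′ side, whereas miR-484 lies on the 5′ side of its hairpin.

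The NC libraries held 6386872 to 9245044 counts each, and the circSOD2-sh libraries 3743860 to 4208276. The part on known miRNAs was 36.2% to 41.9% in NC but 95.1% to 96.5% in circSOD2-sh, so the scaling of the libraries bears on every fold change below. The comparison used edgeR (quasi-likelihood, TMM scaling), and p-values were adjusted over all 895 miRNAs left by the filter on low counts. Levels are given as normalized CPM, the CPM on the TMM-scaled library size. All 3 markers of the carcinoma line were present. Of these, miR-21-5p, abundant in many carcinomas, reached 108230 to 154570 normalized CPM over the 8 libraries. Far lower were miR-210-3p, at 13.9 to 27.0, and miR-155-5p, at 8.84 to 15.9. The 3 kidney tubule markers summed to 1046 in NC replicate 4 and to 291 to 389 in the other 7 libraries. This sum hides miR-204-5p, which had 164 counts in circSOD2-sh replicate 2. It had 1, 0, 0 and 4 counts in NC replicates 1 to 4 and 9, 7 and 7 in circSOD2-sh replicates 1, 3 and 4. Markers of other cells stood out in NC replicate 4 and circSOD2-sh replicate 2. Summed over the 3 neural markers, circSOD2-sh replicate 2 had 4316 normalized CPM against 32.1 to 45.6 in the other 7 libraries. The 4 red cell markers summed to 170.8 in NC replicate 4 and 59.9 in circSOD2-sh replicate 2 against 21.6 to 42.6 elsewhere. In the same order, the vessel and stroma markers summed to 1029 and 588 against 201 to 249 elsewhere. Leukocyte markers summed to 16.6 and 8.30 against 0.853 to 3.21. Muscle markers were highest in NC replicate 4, at 41.1 against 9.38 to 29.1 elsewhere. The liver marker stood out in neither library, at 3.75 to 5.83 in NC and 1.36 to 2.49 in circSOD2-sh. All named markers were listed in the table, and none was at 0 in every library. In bulk RNA, fewer cells of a type and less RNA per cell cannot be told apart.

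Of the 8 miRNAs, 6 passed the low-count filter. With edgeR, 5 of these 6 had an adjusted p-value below 0.05, where 65.7% of all miRNAs tested and 55.1% of the other known miRNAs tested did. In circSOD2-sh 4 of them were lower and 1 was higher, against 32.4% of all miRNAs tested that were lower and 33.3% that were higher. The 4 that fell were miR-320a, miR-320b, miR-320c and miR-320d, the 1 that rose was miR-484, and miR-877-5p did not pass. With library totals in place of TMM, none of the 4 was called lower and miR-320a lay above 0. For the same 5 miRNAs no NC library lay within the range of circSOD2-sh, where 60.3% of all miRNAs tested and 51.9% of the other known miRNAs did not overlap. So many miRNAs were called that these counts are read only beside the background. The median log2 fold change was -1.13 over the 4 miR-320 rows tested, which may share reads, and -0.10 over the 457 other known miRNAs tested.

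**Figure D1:**
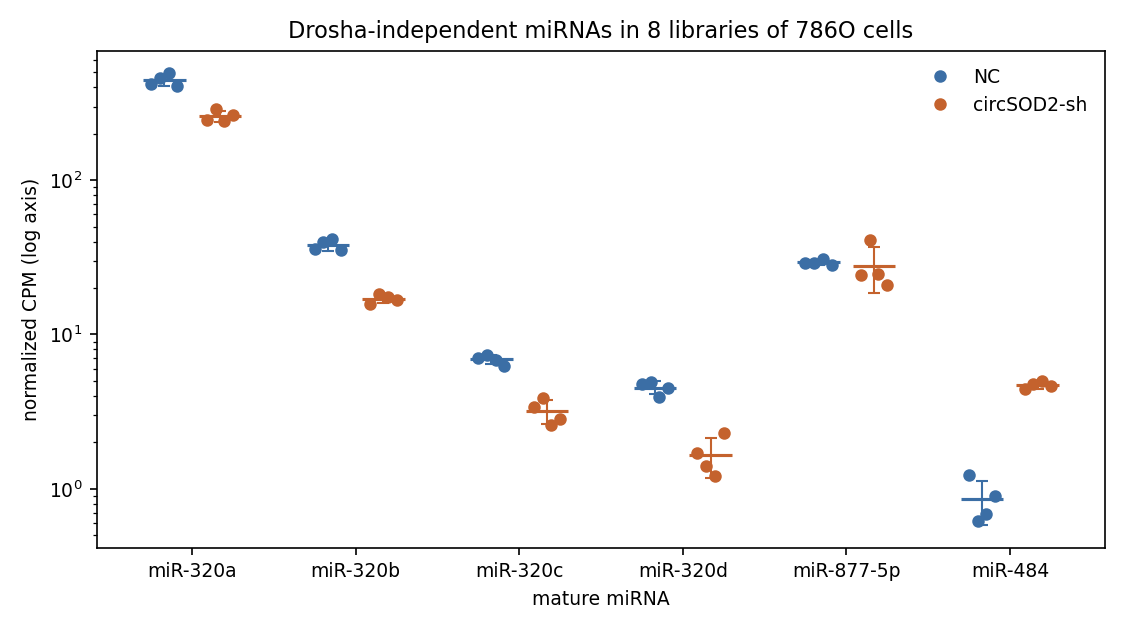
Normalized CPM (log axis) of the 6 miRNAs that passed the filter in each library, with NC in blue and circSOD2-sh in orange. Points are libraries, horizontal lines are means and bars are SD (n = 4). After TMM scaling the 4 miR-320 rows sit lower in circSOD2-sh, which for miR-320a turns with library totals, miR-484 sits higher, and miR-877-5p overlaps, with circSOD2-sh replicate 2 at 41.1.

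The most abundant of them was miR-320a, a miRNA found in most human tissues. It had 2736, 2993, 2887 and 1827 counts in NC replicates 1 to 4 and 1453, 1642, 1197 and 1482 counts in the circSOD2-sh replicates. This came to 446 ± 37.9 normalized CPM in NC, compared with 260 ± 22.1 in circSOD2-sh (SD, n = 4 each). All NC libraries, from 411 to 492, lay above all circSOD2-sh libraries, from 240 to 290. On the log2 scale this was a change of -0.78 with a standard error of 0.10 (edgeR, adjusted p = 5.82e-05), a level 1.71-fold lower. Among known miRNAs it held rank 68 to 73 by level in the NC libraries and rank 94 to 98 in circSOD2-sh. Of the 457 other known miRNAs tested, 47 had a lower log2 fold change.

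Next in level was miR-320b, which carries the seed shown above. Its counts were 232, 259, 245 and 157 in NC and 93, 104, 87 and 94 in circSOD2-sh. The level fell from 38.1 ± 3.21 to 17.1 ± 1.09 normalized CPM (SD, n = 4 each), with NC between 35.3 and 41.8 and circSOD2-sh between 15.8 and 18.4. On the log2 scale this was a change of -1.16 with a standard error of 0.12 (edgeR, adjusted p = 1.76e-05), a 2.23-fold lower level. All NC libraries lay above all circSOD2-sh libraries. With library totals the value was -0.19 (edgeR, adjusted p = 0.206).

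The shorter forms miR-320c and miR-320d rest on fewer reads. For miR-320c the counts were 46, 48, 40 and 28 in NC and 20, 22, 13 and 16 in circSOD2-sh. Its level was 6.89 ± 0.46 normalized CPM in NC and 3.18 ± 0.57 in circSOD2-sh (SD, n = 4 each), and it changed by -1.11 ± 0.17 on the log2 scale (standard error, edgeR adjusted p = 0.000326). The groups did not overlap. For miR-320d the counts were 31, 32, 23 and 20 in NC and 10, 8, 6 and 13 in circSOD2-sh. Its level was 4.52 ± 0.44 in NC and 1.66 ± 0.48 normalized CPM in circSOD2-sh (SD, n = 4 each), and its change of -1.43 ± 0.23 on the log2 scale (standard error, edgeR adjusted p = 0.000326) was the lowest among the 4. Again all NC libraries were above all circSOD2-sh libraries. With library totals miR-320c was at -0.14 and miR-320d at -0.47, and neither passed (edgeR, adjusted p = 0.489 and 0.0985). The remaining form, miR-320e, had 3, 1, 5 and 3 counts in NC and 3, 2, 0 and 0 in circSOD2-sh and was not tested. A count of 0 allows up to 3 counts, which is 0.602 and 0.534 normalized CPM in circSOD2-sh replicates 3 and 4, so a difference of miR-320e was not detectable at this depth.

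In contrast, miR-484 was scarce in NC and rose in circSOD2-sh. The circSOD2-sh libraries held fewer counts in total but more on known miRNAs, 3604691 to 4059249 against 2344870 to 3573638 in NC. Counts of miR-484 were 8, 4, 4 and 4 in NC and 26, 27, 25 and 26 in circSOD2-sh. The exact 95% Poisson intervals of these counts, which cover counting error alone, since PCR copies are no separate molecules, reached from 3.45 to 15.8 for the 8 counts of NC replicate 1 and from 16.2 to 36.9 for the 25 counts of circSOD2-sh replicate 3. The level was 0.856 ± 0.28 normalized CPM in NC and 4.71 ± 0.25 in circSOD2-sh (SD, n = 4 each). Every circSOD2-sh library, from 4.42 to 5.02, was above every NC library, from 0.616 to 1.23. On the log2 scale this was a change of 2.43 with a standard error of 0.24 (edgeR, adjusted p = 8.99e-06), a 5.38-fold higher level. Of the other known miRNAs tested, 46 rose by more. The level stayed low in both groups, at rank 467 to 577 among known miRNAs in NC and 332 to 396 in circSOD2-sh.

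**Figure D2:**
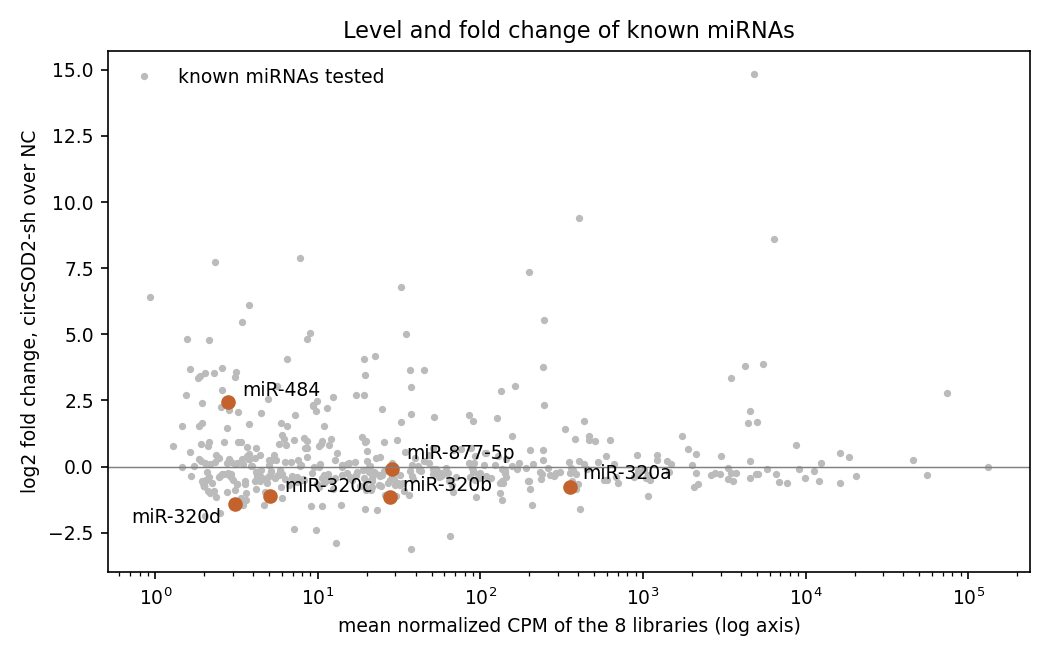
Log2 fold change of circSOD2-sh over NC against the mean normalized CPM of the 8 libraries (log axis) for the 463 known miRNAs tested (grey), with the Drosha-independent miRNAs in orange and named. After TMM scaling the 4 miR-320 rows lie between -1.43 and -0.78, miR-877-5p lies at -0.09 and miR-484 at 2.43. With library totals miR-320a lies above 0.

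The mirtron miR-877-5p had 190, 190, 182 and 126 counts in NC and 142, 233, 122 and 117 in circSOD2-sh. Its level was 29.4 ± 1.14 normalized CPM in NC and 27.6 ± 9.15 in circSOD2-sh (SD, n = 4 each). In circSOD2-sh replicate 2 it was at 41.1 normalized CPM, above every NC library, whereas the other circSOD2-sh libraries, at 24.1, 24.5 and 20.8, were below every NC library. Over all libraries it changed by -0.09 ± 0.21 on the log2 scale (standard error, edgeR adjusted p = 0.708), which did not pass. Without circSOD2-sh replicate 2 it was -0.45 (adjusted p = 0.0124 from edgeR), and without NC replicate 4 as well it was -0.47 (adjusted p = 0.00876 from edgeR). Hence the call on miR-877-5p depends on that library, in which the neural markers were also high, and their part in the result was not tested. The other arm, miR-877-3p, had 0, 3, 0 and 0 counts in NC and 4, 3, 5 and 1 in circSOD2-sh and was not tested. Of the counts on both arms, miR-877-3p held 0.434% in NC (3 of 691, exact Clopper-Pearson 95% interval 0.0896% to 1.26%) and 2.07% in circSOD2-sh (13 of 627, 1.11% to 3.52%), summed over the 4 libraries of a group. In both groups the 5′ arm held nearly all counts of the mirtron, and these pooled shares were not tested over libraries.

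Because scaling matters here, the miRNAs were also compared within each library. The 5 miR-320 rows together held 0.0911%, 0.0933%, 0.0955% and 0.0868% of the counts on known miRNAs in NC and 0.0418%, 0.0438%, 0.0361% and 0.0428% in circSOD2-sh. The mean share was 0.0916% ± 0.0037 in NC and 0.0411% ± 0.0034 in circSOD2-sh (SD, n = 4 each), 2.23-fold lower and without overlap (p = 0.0286 in a two-sided exact permutation test, the lowest that 4 against 4 libraries allow). Over all rows, predicted miRNAs included, the share was 0.0355% in NC and 0.0394% in circSOD2-sh, with overlap (exact permutation p = 0.2). The denominator thus decides the direction for the miR-320 rows. For miR-484 the share was far smaller and rose from 0.00016% to 0.000685% of known miRNA counts, 4.28-fold (exact permutation p = 0.0286). Over all rows it rose from 6.09e-05% to 0.000657%, or 10.8-fold (exact permutation p = 0.0286). The miR-877 rows held 0.00547% ± 0.00014 in NC and 0.00409% ± 0.0012 in circSOD2-sh (SD, n = 4 each, exact permutation p = 0.143). Of these circSOD2-sh libraries, replicate 2 was again the highest, at 0.00581%. Over all rows the direction turned, with 0.00211% in NC and 0.00392% in circSOD2-sh, 1.86-fold higher (exact permutation p = 0.0286).

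**Figure D3:**
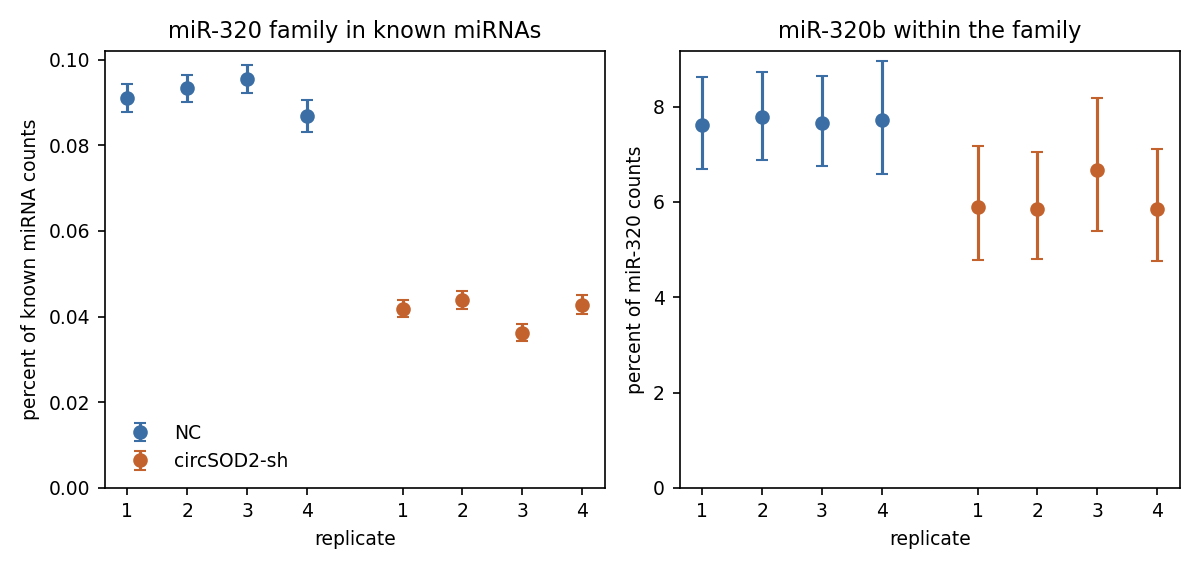
Left, percent of known miRNA counts on the 5 miR-320 rows, and right, percent of miR-320 counts on miR-320b, by library, with exact Clopper-Pearson 95% intervals that cover counting error only. NC is blue and circSOD2-sh orange. The family share is 0.0868% to 0.0955% in NC and 0.0361% to 0.0438% in circSOD2-sh, while the miR-320b share moves from 7.69% to 6.07% on average.

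With TMM scaling or in known miRNA counts, the make-up of the family moved less than its level. Over all rows, however, the family share was 1.11-fold higher in circSOD2-sh, a smaller move than that of miR-320b below. On average miR-320a held 89.9% of the miR-320 counts in NC and 92.1% in circSOD2-sh. Whether miR-320a can share reads with the other rows was not examined. The part of miR-320b was 7.61% to 7.77% in NC and 5.85% to 6.68% in circSOD2-sh, without overlap. Relative to miR-320a in the same library, miR-320b was lower by a factor of 1.30 in circSOD2-sh, a difference of -0.38 in the log2 ratio (exact two-sided permutation p = 0.0286, 0.0429 after Benjamini-Hochberg adjustment over the 6 ratios tested). For miR-320c the difference was -0.33 (exact permutation p = 0.0571, adjusted 0.0686), which did not pass. The ratio of miR-877-5p to miR-320a was 1.55-fold higher in circSOD2-sh, a log2 difference of 0.64 (exact permutation p = 0.0286, adjusted 0.0429). Without any 1 of the NC libraries the adjusted p-values of the 4 ratios that passed lay above 0.05. The log2 differences were then -0.38 to -0.37 for miR-320b and 0.61 to 0.66 for miR-877-5p. These p-values rest on fewer libraries and, through the adjustment, also on the other ratios. Ratios between 2 of these miRNAs were not tested where either had under 10 counts in a library. Among these, the log2 ratio of miR-484 to miR-320a ran from -9.38 to -8.33 in NC but from -5.90 to -5.55 in circSOD2-sh, 8.97-fold higher on average, without overlap of the groups.

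A set of 6 canonical miRNAs commonly used as qPCR references, all made by Drosha, served as a yardstick within the library. Set against their geometric mean, miR-320a was 1.77-fold lower in circSOD2-sh, a log2 difference of -0.83 (exact two-sided permutation p = 0.0286, adjusted 0.0429). No such minimum was set for ratios to the references, and miR-484 had only 4 to 8 counts in the NC libraries. For miR-484 the difference was 2.34, or 5.06-fold higher (exact permutation p = 0.0286, adjusted 0.0429). For miR-877-5p it was -0.19 (exact permutation p = 0.4), and without circSOD2-sh replicate 2 it was -0.37 (adjusted exact permutation p = 0.0343). Without any 1 NC library the adjusted p-value of miR-320a and of miR-484 was 0.0571, with log2 differences of -0.84 to -0.79 and of 2.18 to 2.52. Through the adjustment this p-value also depends on the other ratios tested, and for both miRNAs the groups did not overlap. The yardstick was not flat itself. Of the 6 references, miR-103a-3p, miR-191-5p and miR-93-5p were higher in circSOD2-sh by log2 fold changes of 0.40, 0.36 and 0.44, miR-16-5p was lower, at -0.58, and miR-423-5p and miR-25-3p, at -0.42 and 0.10, did not pass (edgeR, adjusted p-value threshold of 0.05). With 1 library left out at a time, the 3 that were higher were lowest without circSOD2-sh replicate 3, at 0.25, 0.18 and 0.26. There miR-191-5p and miR-93-5p no longer passed (edgeR, adjusted p = 0.119 and 0.0843). With totals of known miRNAs none of the 3 passed, at 0.052, 0.013 and 0.098 (edgeR, adjusted p = 0.443, 0.817 and 0.259). In turn miR-423-5p was called lower without circSOD2-sh replicate 2, at -0.66 (edgeR, adjusted p = 0.00998), and without NC replicate 4 as well, at -0.68 (edgeR, adjusted p = 0.0219). It was also called lower without NC replicate 3 or circSOD2-sh replicate 3, with RLE size factors and with totals of known miRNAs (edgeR, adjusted p = 0.0429, 0.0446, 0.0386 and 0.00409). The directions of miR-16-5p and miR-423-5p turned with library totals, upper quartile or deposited CPM, and that of miR-25-3p turned without circSOD2-sh replicate 1, 3 or 4 and with totals of known miRNAs.

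When TMM was replaced by library totals, the median change of all miRNAs tested moved on the log2 scale from -0.0021 to 0.963, with 68.5% of miRNAs called higher and 17.7% lower. Under that scaling miR-320a was at 0.19 (adjusted p = 0.124 from edgeR) and none of the 4 tested miR-320 rows was called lower, while miR-484 was at 3.38 and miR-877-5p, at 0.87, was called higher (adjusted p = 0.0022 from edgeR). Distances to the median of the other known miRNAs in the same fit were also taken. The miR-320 rows and miR-484 kept their side of it in each alternative that tested them. A change of scaling shifts all miRNAs nearly alike, so this distance to the median cannot test the scaling. In that measure miR-320a lay at -0.68 with TMM and between -0.84 and -0.63 in 21 alternatives. The values of miR-320b, miR-320c and miR-320d were between -1.22 and -0.99, between -1.17 and -0.92 and between -1.56 and -1.13. For miR-484 the distance was 1.40 to 2.78. The distance of miR-877-5p was from -0.21 to 0.09, on both sides of the median.

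**Figure D4:**
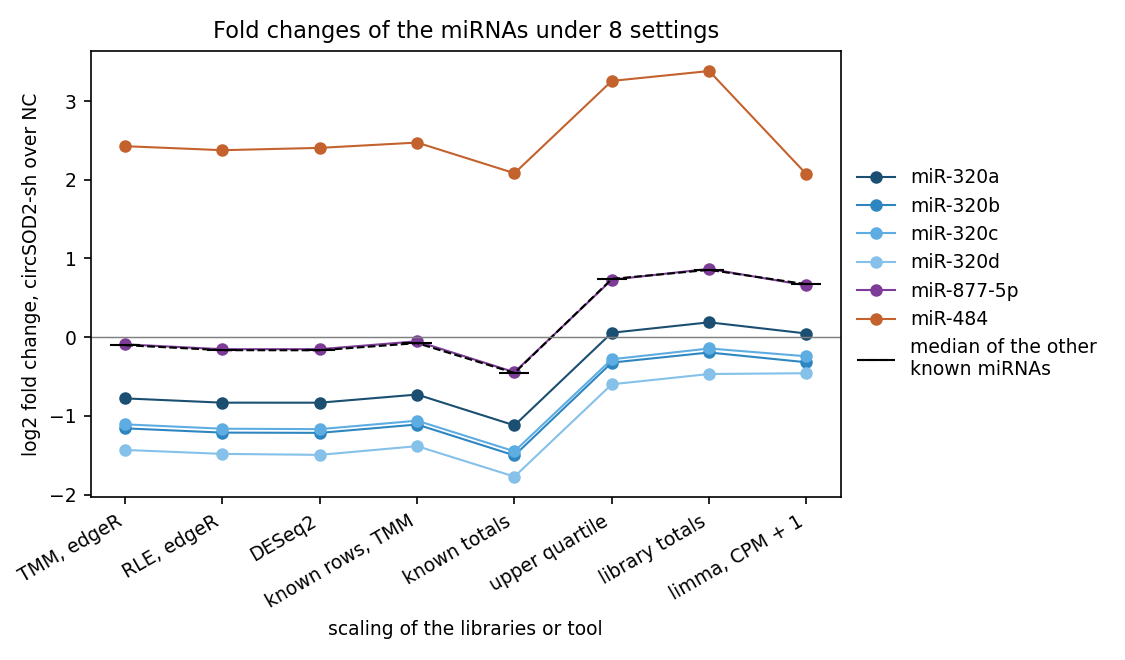
Log2 fold change of circSOD2-sh over NC for the 6 miRNAs tested under 8 choices of scaling or tool. Lines join values of the same miRNA, and the dashed black line is the median of the other known miRNAs tested. Upper quartile, library totals and limma on log2 of the deposited CPM plus 1 shift the lines upward. In that order the median lies at 0.74, 0.86 and 0.67. The miR-320 rows stay below the median and miR-484 stays above it. A new scaling moves all lines nearly alike, so these sides do not test the scaling.

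Other miRNAs made without Drosha, as far as they were on a list fixed by name, were nearly absent. Such miRNAs outside the list were not looked for. Of 21 arms of further human mirtrons looked for by name, 9 were listed, none passed the filter and the highest count in a library was 6. Their counts summed to 1 to 7 in an NC library and to 8 to 13 in a circSOD2-sh library, too few to compare at this depth. The most frequent was miR-1226-3p, from an intron of DHX30, with 0, 4, 1 and 0 counts in NC and 4, 6, 4 and 6 in circSOD2-sh. Of 6 miRNAs that derive from snoRNAs, 2 were listed, with at most 1 count in a library. Among the mirtrons looked for, miR-877-5p was the one with enough counts to test.

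Known miRNAs with the pattern most like each of the main members were picked out of 457. The measure was the smallest root mean square difference over the 8 libraries between mean-centred values of log2(normalized CPM + 1). The 1 added understates changes of low values, such as those of miR-484. For miR-320a these were let-7e-5p, miR-16-5p and miR-548a-3p, at 0.0938, 0.108 and 0.111 on the log2 scale. For miR-484 they were miR-3940-3p, miR-18a-3p and miR-92a-3p, at 0.139, 0.162 and 0.166. This order holds for TMM scaling, since with library totals miR-3940-3p was still first but miR-18a-3p was at place 17 and miR-92a-3p at place 23. The log2 fold changes of these 3 were 2.02, 2.12 and 1.69 in the edgeR fit, where miR-484 was at 2.43. Nearest to miR-877-5p were miR-29b-3p, miR-132-5p and miR-29c-5p, at 0.108, 0.114 and 0.124. The levels behind these patterns differ widely, from 0.856 normalized CPM of miR-484 to 8264 of miR-16-5p in NC. The miRNAs like miR-877-5p were also highest in circSOD2-sh replicate 2, where miR-29b-3p reached 579 normalized CPM and miR-132-5p 37.6, above their NC ranges of 452 to 493 and 22.0 to 31.1.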

How the data were processed

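The authors deposited counts of reads per mature miRNA without normalization for 8 libraries, and CPM, whose sums show that the authors divided by more reads than the table lists. A further table holds the authors' group means, fold changes and p-values and was not used. The submitters' processing notes name FastQC 0.11.2, Trimmomatic 0.36, Bowtie 1.1.1 and GRCh38. The counting tool and the miRNA annotation are not given in the sources used here. Columns were matched to samples by name. The test was that of edgeR 4.0.16 in R 4.3.3 (filterByExpr with a minimum count of 10, TMM, quasi-likelihood test, prior count 0.125, Benjamini-Hochberg). It reports no standard error, so those given were derived as the absolute log2 fold change divided by the square root of its F statistic. Alternatives used DESeq2 1.42.0, limma 3.58.1 on log2(CPM + 1) or log2(CPM + 0.1) of the deposited values, which understates changes of low values, and other scalings, filters and subsets of libraries. Ratios within a library were log2 of counts plus 0.5 and, between 2 of these miRNAs, needed 10 counts of each in each library, while ratios to the references had no minimum. Permutation tests were exact and two-sided over libraries, 4 against 4 unless a library was left out. The edgeR test was checked on simulated counts in which 200 miRNAs changed, as many up as down, sparing the most abundant ones. These data are less balanced, so that check does not bear on the choice of scaling. Further software was scipy 1.17.1, pandas 2.3.3 and matplotlib 3.10.9, run under Python 3.11.15. The miRNAs and lists were chosen with earlier results of these data known. Named with values were all of these miRNAs, the 6 references and markers of cell types as sums. So were the 3 known miRNAs nearest in pattern to miR-320a, miR-484 and miR-877-5p. In addition, miR-21-5p, miR-155-5p, miR-210-3p, miR-204-5p and miR-1226-3p were named after their values were seen. Sequences are from RefSeq (GRCh38.p14), with 7 of the 8 names matched, and exons from GENCODE release 29 (GRCh38).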

Additional observations from a re-analysis of the deposited data

Results flagged for a closer look

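In 4 of 32 sets of 4 libraries, 1 library stood far from the rest, where chance alone gives about 1.6 such sets. The level of miR-877-3p was 0.462 normalized CPM in NC replicate 2 and 0 in the other NC libraries, which rests on 3 counts. The log2 ratio of miR-320b to miR-320a was -3.77 in circSOD2-sh replicate 3, with the remaining circSOD2-sh libraries at -3.97 to -3.96, and this value is still below the NC range. The log2 ratio of miR-320a to the reference miRNAs was -1.40 in NC replicate 3, with the remaining NC libraries at -1.55 to -1.53. The log2 ratio of miR-877-5p to the reference miRNAs was -5.50 in NC replicate 2, with the rest at -5.40 to -5.38. No cause of these values was tested.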

How the results depend on the processing

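Direction depends on the scaling for miR-320a and miR-877-5p. With library totals, upper quartile, limma on log2 of CPM plus 1 and limma on log2 of CPM plus 0.1, the log2 fold change of miR-320a turned to 0.19, 0.057, 0.047 and 0.047, and that of miR-877-5p to 0.87, 0.73, 0.66 and 0.68. Under the same settings miR-16-5p turned to 0.38, 0.25, 0.24 and 0.24 and miR-423-5p to 0.54, 0.41, 0.34 and 0.39. The cause was not tested. The log2 fold change of miR-25-3p turned to -0.050, -0.064 and -0.034 without circSOD2-sh replicates 1, 3 and 4 (highest 0.065, without circSOD2-sh replicate 2), and to -0.24 with totals of known miRNAs, an alternative added after the data were seen. The share of known miRNA counts fell by 0.0514 percentage points for all 8 miRNAs and fell by 0.0505 for the miR-320 rows, and turned to 0.0063 and 0.0039 over all rows. Of the 8 miRNAs, 4 were called lower and 1 higher with TMM, and 0 and 2 with library totals or upper quartile by edgeR. At an unadjusted p under 0.05 this was 0 and 2 with library totals and 1 and 2 with upper quartile. With limma on either CPM scale it was 2 and 2. Where the mean count had to reach 50 it was 2 and 0, with only miR-320a, miR-320b and miR-877-5p tested. Of the 463 known miRNAs tested, 132 were called lower and 125 higher with TMM, 12 and 355 with library totals and 13 and 319 with upper quartile. With limma this was 16 and 309 on CPM plus 1 and 16 and 308 on CPM plus 0.1. Over all miRNAs 588 were called with TMM, 771 with library totals, 730 with upper quartile, and 724 and 721 with limma. It was 246 among known miRNAs only and 361 with that minimum, where fewer were tested.

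Leaving out each library in turn, the log2 fold change lay between -0.94 and -0.77 for miR-320a, between 2.22 and 2.63 for miR-484 and between -0.45 and -0.10 for miR-877-5p, which was called lower without circSOD2-sh replicate 2, also without NC replicate 4 as well (-0.47). Over each library left out, and NC replicate 4 and circSOD2-sh replicate 2 left out together (3 against 3, where an exact p cannot go below 0.1), the log2 differences of the ratios lay between -0.42 and -0.35 for miR-320b over miR-320a, -0.39 and -0.27 for miR-320c over miR-320a (adjusted exact permutation p = 0.0343 without circSOD2-sh replicate 1), and 0.48 and 0.76 for miR-877-5p over miR-320a. Against the references they lay between -0.86 and -0.78 for miR-320a, 2.18 and 2.52 for miR-484 and -0.37 and -0.080 for miR-877-5p.

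With the replicate number as a block, 574 miRNAs were called in all, and of the 8 miRNAs 4 were lower and 1 higher. The numbers do not pair the samples, because deviations of equally numbered samples correlated at 0.224, -0.065, 0.0851 and -0.15, and the block changed no call on the 8 miRNAs. An exact paired test over 4 pairs cannot go below p = 0.125. Depth limits miR-484 in NC, miR-320e and miR-877-3p, with at most 8, 5 and 5 counts in a library.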
